A study of Mus musculus with 14 samples.

Results

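The mouse genes examined were 10 surface, transcription factor and protease genes by which skeletal stem cells and stromal cells are commonly recognised or traced, namely Ly6a, Gas1, Cd200, Eng, Thy1, Nt5e, Mcam, Ngfr, Prrx1 and Ctsk. They were taken by gene name from the 30503 genes of the count table. Each name matched 1 Ensembl gene, and all 10 were among the 17358 genes with enough counts to be tested. The 14 bulk RNA-seq libraries each came from a cultured clone that had been expanded from a single tdTomato+ cell of femoral bone marrow after a tamoxifen pulse at P21 (postnatal day 21). The 5 Fgfr3-WT clones came from Fgfr3-creER; R26R tdTomato/+ mice and were isolated at P23. The 5 P28 clones and the 4 P4M clones came from mice that carried Trp53 fl/fl besides Fgfr3-creER and R26R tdTomato/+, and were isolated at P28 and at 4 months, respectively. In these conditional knockout (cKO) mice the cre recombinase that removes Trp53 is driven by Fgfr3 and activated by tamoxifen, which all 3 groups received. The Fgfr3-WT mice carried no floxed Trp53 allele. Cells were grown to Passage 8 (Fgfr3-WT and P28) or Passage 6 to 8 (P4M). Each library therefore represents 1 clone after prolonged culture, and the labels do not say how many mice the clones of a group came from, so that p values measure the spread between clones. All Fgfr3-WT libraries belong to submission 1303 and all cKO libraries to submission 2963. Age at isolation differs too, at P23 for Fgfr3-WT and at P28 or 4 months for the cKO groups. The paper reports faster growth and higher passageability of cKO clones than of wild-type clones. Equal passage therefore does not mean equal time in culture or equal survival of clones. A difference between either cKO group and Fgfr3-WT cannot be told apart from a difference in submission, age at isolation, time in culture or survival of clones. P4M against P28 was compared within submission 2963.

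Skeletal stem cells give rise to osteoblasts, chondrocytes and marrow stromal cells, and no single gene defines them. Eng (CD105), Nt5e (CD73) and Thy1 (CD90) form the classical surface panel of cultured mesenchymal stromal cells. Eng is a co-receptor for TGF-beta and BMP9, Nt5e is an ectoenzyme that makes adenosine from AMP, and Thy1 is a small GPI-anchored glycoprotein. Mcam (CD146), an adhesion molecule, and Ngfr (CD271), the low-affinity neurotrophin receptor, mark perivascular stromal cells that form colonies. Ly6a (Sca-1), Cd200 and Gas1 have served to isolate mouse skeletal progenitors. Cd200 is a ligand that restrains myeloid cells, and Gas1 is a GPI-anchored co-receptor for Hedgehog ligands. Prrx1 is a homeodomain transcription factor of the limb bud mesenchyme. Ctsk is a collagen-degrading cysteine protease best known from osteoclasts, and it also marks stem cells of the periosteum.

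All 10 are protein-coding in GENCODE M21 (mm10). Mcam lies on chromosome 9 from 44134469 to 44142727 (plus strand, 16 exon blocks). Thy1 (44043384 to 44048579, plus strand) and Nt5e (88327197 to 88372092, plus strand) are on the same chromosome. Ctsk lies on chromosome 3 from 95499256 to 95509362 (plus strand). Eng is on chromosome 2 from 32646595 to 32682669 (plus strand), Prrx1 on chromosome 1 from 163245119 to 163313710 (minus strand), Gas1 on chromosome 13 from 60174405 to 60177365 (minus strand, a single exon), Ly6a on chromosome 15 from 74994877 to 74998031 (minus strand), Cd200 on chromosome 16 from 45382135 to 45409053 (minus strand) and Ngfr on chromosome 11 from 95568818 to 95587735 (minus strand). Gas1 shares 589 of its 2961 exonic bases with Gm48488 on the other strand, and SMART-Seq libraries do not keep strand. Of the distinct 50-base windows in Ly6a transcripts, 19.0% also occurred in transcripts of other genes, which were Ly6c1, Ly6c2, Ly6i and I830127L07Rik, so the split of reads among these relatives is uncertain. For Gas1 this share was 17.0%, all with Gm48488, and for the other 8 genes it was at most 0.854%.

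Promoter sequences from RefSeq (GRCm38.p6) were held for 8 of the 10 genes. A stretch of each is shown for the genes that were called in opposite directions in the 9 cKO clones, Mcam higher and Ctsk lower. The Mcam stretch, chr9:44134619-44134646 on the plus strand, holds a GC box and a cAMP response element, both in capitals, and in GENCODE it falls within a first exon of Mcam, since the GENCODE gene starts 189 bases before the RefSeq start. The Ctsk stretch, chr3:95499110-95499209 on the plus strand, is the 100 bases before its RefSeq start and has no capitals because none of the letters searched occurred there.
Mcam: cCCGCCCcccTGACGTCAgcccccgaca
Ctsk: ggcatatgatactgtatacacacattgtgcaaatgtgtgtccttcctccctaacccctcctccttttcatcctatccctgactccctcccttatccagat
The letters TGACGTCA, which read the same on both strands, were found in the 250 bases before the start in 1.55% of 32851 promoters and, of the 8 genes, in Mcam alone. The GC box letters GGGCGG, on either strand (CCGCCC on the other), were in 32.7% of all promoters and in 5 of the 8 (Mcam, Nt5e, Ngfr, Gas1 and Cd200), and some of these boxes overlap each other. The TATA box letters TATAAA (12.4% of all promoters) and the E-box letters CACGTG (6.02%) were in none of the 8. The 250 bases before the start were 73.6% G or C with 25 CG pairs in Mcam and 43.2% with 0 pairs in Ctsk, against medians of 52.4% and 6 over all promoters. These matches describe the letters of the windows only.

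The libraries held 25688946 to 38958693 counts (Fgfr3-WT), 37606033 to 48648618 counts (P28) and 43757832 to 52857424 counts (P4M). Levels are given as CPM, the counts scaled to the TMM-adjusted total of the library, and the upper limit that a count of 0 allows, 3 counts, corresponds to 0.0564 to 0.121 CPM, a limit that covers counting error only. Trp53 was present at 49.9 to 68.2 CPM in the Fgfr3-WT clones and at 1.72 to 2.84 CPM in all 9 cKO clones. The stromal collagen gene Col1a2 was at most 0.842 CPM in Fgfr3-WT clones 1 to 4 and 4354 CPM in clone 5, against 7793 to 33256 CPM in the cKO clones. Other stromal genes differed from it in Fgfr3-WT, with Fn1 at 10764 to 69315, Vim at 1432 to 6434.5 and Col3a1 at 0.13 to 637 CPM. Over 12 skeletal stromal markers the summed level was 16493 to 77115 CPM in Fgfr3-WT, 34571 to 61531 CPM in P28 and 35500 to 56176 CPM in P4M. All 12 were tested. Against Fgfr3-WT, 2 were higher and 2 lower in P28 (19.2% and 19.7% of all tested genes). In P4M 3 were higher and 3 lower (22.3% and 23.6%). Clones are numbered in accession order, and numbers do not pair clones across groups.

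Per unit of length, in the authors' TPM (transcripts scaled by length and depth), the leading gene was Ctsk in Fgfr3-WT (median 330 TPM, range 144 to 382), Prrx1 in P28 (median 195 TPM, range 1.58 to 288) and Ly6a in P4M (median 97.1 TPM, range 83.5 to 239). Ctsk was the highest of the 10 in Fgfr3-WT clones 1 to 4 and Ly6a in clone 5. In P28 the highest was Gas1 in clones 1 and 3, Prrx1 in clone 2 and Ly6a in clones 4 and 5, whereas Ly6a was the highest in all 4 P4M clones. At the other end, Ngfr reached 1.61 TPM in a single clone, P28 clone 3, and was at most 0.53 TPM elsewhere. Nt5e held the fifth place in every group. The full order was Ctsk, Ly6a, Gas1, Prrx1, Nt5e, Eng, Cd200, Thy1, Mcam and Ngfr in Fgfr3-WT. It was Prrx1, Ly6a, Gas1, Ctsk, Nt5e, Mcam, Eng, Cd200, Thy1 and Ngfr in P28, and Ly6a, Prrx1, Ctsk, Gas1, Nt5e, Cd200, Mcam, Eng, Ngfr and Thy1 in P4M. Neighbours in these orders overlapped in their ranges throughout Fgfr3-WT and, in P28, everywhere but between Ctsk and Nt5e. In P4M they stood apart between Ly6a and Prrx1, Nt5e and Cd200, Eng and Ngfr, and Ngfr and Thy1.

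**Figure D1:**
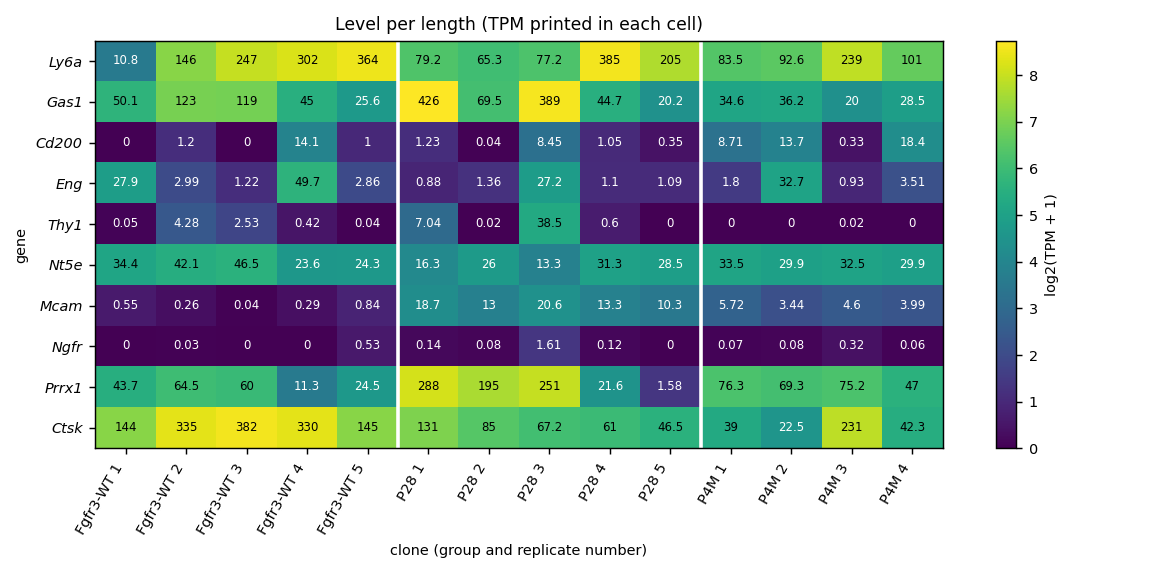
Levels per length of the 10 genes (rows) in the 14 clones (columns, by group and clone number), with TPM printed in each cell and log2(TPM + 1) as colour. Mcam is at most 0.84 TPM in the Fgfr3-WT clones and at least 3.44 TPM in the cKO clones, and Prrx1 in the P28 clones runs from 1.58 to 288 TPM.

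Group differences were tested with the quasi-likelihood F-test of edgeR in 1 model of all 14 clones, and genes were called at a Benjamini-Hochberg FDR of 0.05 over all 17358 genes. In P28 against Fgfr3-WT, 1 of the 10 genes was higher (Mcam), where 19.2% of all tested genes were called higher, and 2 were lower (Ctsk and Nt5e), where 19.7% of all were called lower. In P4M against Fgfr3-WT, 1 was higher (Mcam; 22.3% of all genes) and 2 were lower (Ctsk and Thy1; 23.6% of all genes). In P4M against P28, 0 of the 10 were called higher by edgeR or any alternative (3.34% of all genes), with 1, Nt5e, at an unadjusted p of 0.0238, and 2 were lower (Mcam and Thy1; 3.88% of all genes). In all cKO clones against Fgfr3-WT, 1 was higher (Mcam; 23.1% of all genes) and 1 was lower (Ctsk; 25.7% of all genes). In the 3 comparisons with Fgfr3-WT these shares of 10 are near or below those of all genes. The comparisons share groups and are not independent of each other. Altogether 4 genes were called in some comparison and 6 (Ly6a, Gas1, Cd200, Eng, Ngfr and Prrx1) in none. The median log2 fold change of the 10 genes was 0.17 in P28 and -0.54 in P4M against Fgfr3-WT.

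**Figure D2:**
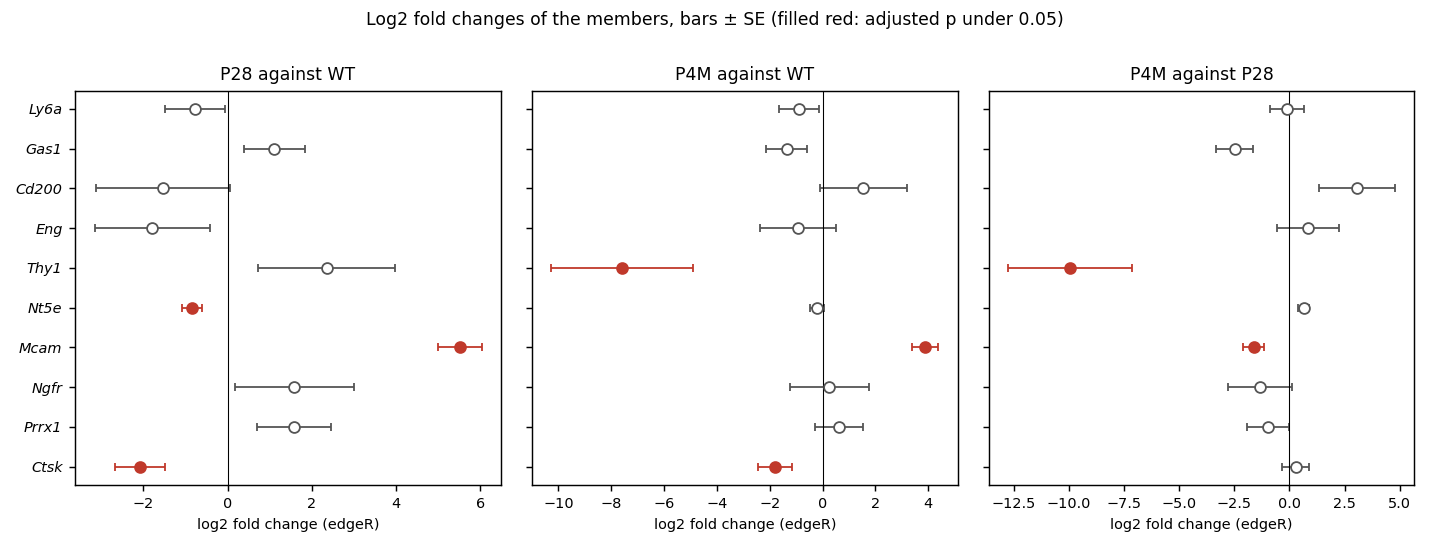
Log2 fold changes of the 10 genes in 3 comparisons (panels, each with its own x axis), as points with bars of ± SE from edgeR, filled red where the adjusted p was under 0.05. Mcam stands at 5.52 and 3.896 in the 2 comparisons with Fgfr3-WT, and the widest bars belong to Thy1 in the P4M comparisons.

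Mcam levels did not overlap between the 3 groups. The share of all tested genes whose groups do not overlap is not given here. Neither this separation nor those of other genes below can therefore be set against it. In Fgfr3-WT clones 1 to 5 it was at 1.08, 0.268, 0.0809, 0.455 and 0.712 CPM. It was at 30, 21.7, 32, 19.9 and 16.5 CPM in P28 clones 1 to 5 and at 9.5, 6.53, 8.2 and 7.03 CPM in P4M clones 1 to 4. Every cKO clone was thus above every Fgfr3-WT clone, and every P4M clone was below every P28 clone. Mcam rose 45.8-fold in P28 (log2 fold change 5.52, SE 0.513, adjusted p = 1.4e-05, edgeR) and 14.9-fold in P4M (log2 fold change 3.896, SE 0.490, adjusted p = 8.21e-05, edgeR). Both calls held in each of the 20 alternative fits that kept the gene. A minimum of 10 counts in each clone removed Mcam, since Fgfr3-WT clone 3 had 2 counts. From P28 to P4M it was 3.07-fold lower (log2 fold change -1.62, SE 0.459, adjusted p = 0.0489, edgeR). That call did not hold in 9 of the 14 fits with 1 clone left out (Fgfr3-WT clone 4, P28 clones 1 to 4 and each P4M clone, adjusted p up to 0.127) and without a filter on low counts (0.0648).

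Pericytes and smooth muscle cells express Mcam. The summed level of their markers over 8 genes was 108 to 251 CPM in Fgfr3-WT, 1346 to 2912 CPM in P28 and 474 to 1128 CPM in P4M, again with no overlap. Of the 7 tested, 2 were higher and 0 lower in P28 against Fgfr3-WT (19.2% and 19.7% of all tested genes). In P4M 2 were higher and 1 lower (22.3% and 23.6%). Most of the sum was Acta2 (smooth muscle actin) and the proteoglycan gene Cspg4 (NG2). Acta2 was at 0.261 to 99.5 CPM in Fgfr3-WT, 1052 to 2709.9 CPM in P28 and 297 to 475 CPM in P4M. Cspg4 was at 104 to 159, 156 to 327 and 137 to 644 CPM in the 3 groups. Per unit of length, the median of Cspg4 was 32.6 TPM against 26.6 TPM for Acta2 in Fgfr3-WT, with overlapping ranges. It was 53.8 against 1936 TPM in P28 and 140 against 327 TPM in P4M. Rgs5, a pericyte regulator of G proteins, was at 0 to 60.4 CPM in Fgfr3-WT, at most 2.75 CPM in P28 and at most 0.316 CPM in P4M. Mcam is also a gene of endothelial cells, and the endothelial cadherin Cdh5 was at 0 in all 14 clones. The summed level of the endothelial list was 1.07 to 3.78, 2.74 to 8.03 and 8.997 to 256 CPM in the 3 groups. Of its 3 tested genes, 2 were higher in P28 and 3 in P4M than in Fgfr3-WT, against 19.2% and 22.3% of all tested genes. The highest sum came from Vwf (von Willebrand factor) at 237 CPM in P4M clone 3. The part of these markers in the Mcam result was not tested.

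**Figure D3:**
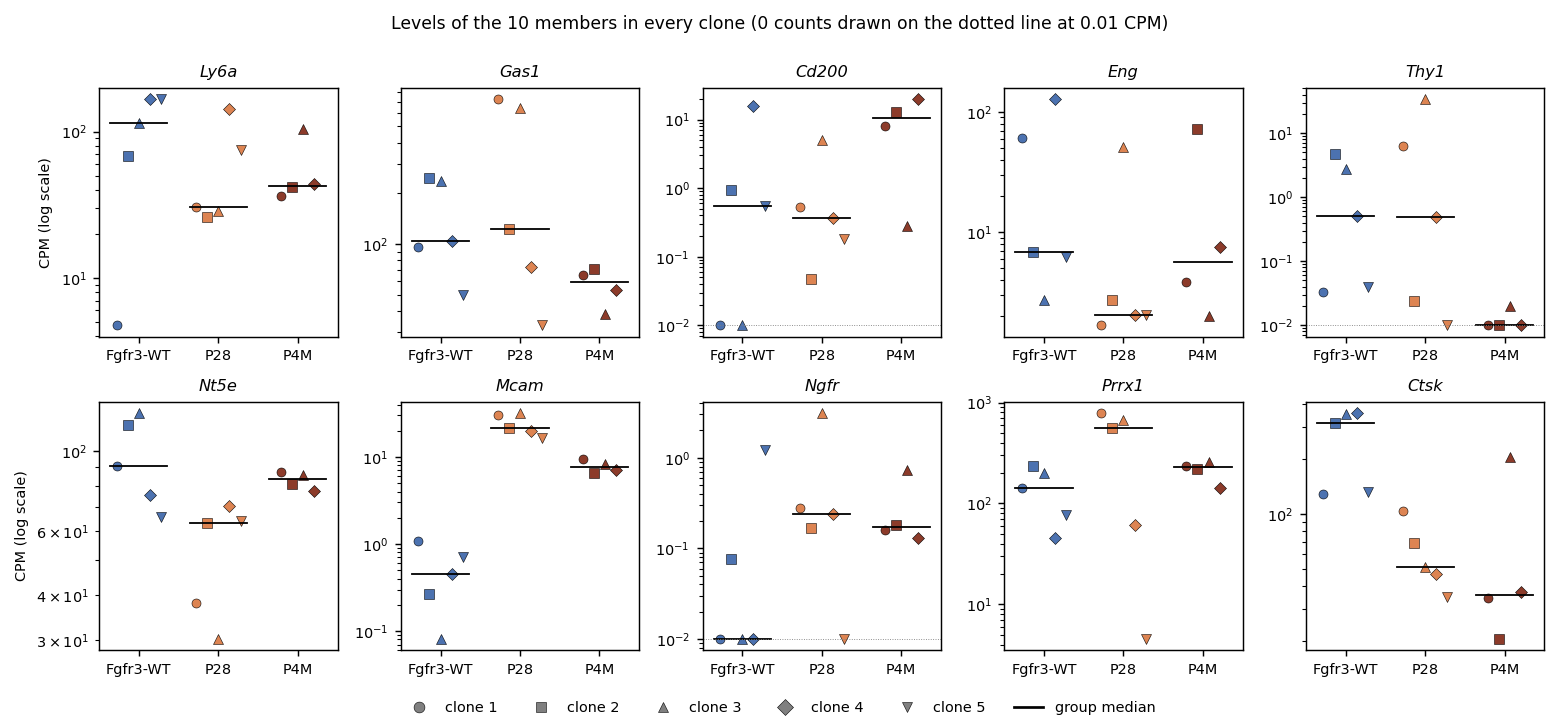
CPM of each of the 10 genes (panels, log axis) in every clone, by group, with a symbol per clone number and a line at the group median, and 0 counts drawn on a dotted line. The groups do not overlap for Mcam. For every gene but Nt5e and Ctsk, single clones of some group lie more than 10-fold apart. The lowest of these clones are near the detection limit for Mcam, Ngfr, Thy1 and Cd200.

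Ngfr, the other perivascular marker, was near the detection limit. It had 0, 2, 0, 0 and 31 counts in Fgfr3-WT clones 1 to 5, or 0, 0.0765, 0, 0 and 1.23 CPM. In P28 it was at 0.28, 0.167, 3.12, 0.242 and 0 CPM and in P4M at 0.161, 0.182, 0.731 and 0.132 CPM. Fgfr3-WT clone 5, P28 clone 3 and P4M clone 3 were the highest of their groups, and the groups overlapped. Against Fgfr3-WT, the log2 fold changes of 1.58 (SE 1.41) in P28 and 0.25 (SE 1.5) in P4M were not called. Without Fgfr3-WT clone 5, Ngfr was called higher in P28 (5.22, adjusted p = 0.0274, edgeR) and in all cKO clones (4.56, adjusted p = 0.0363, edgeR). The sign in P4M turned without Fgfr3-WT clone 1, 3 or 4 or P4M clone 3, to -0.67 at the lowest. Schwann and neural crest cells express Ngfr as well. Of their 7 markers, Foxd3 was at 0 in all clones and Sox10 was at most 0.0977 CPM. S100b, of the same list, was at 47.9 to 614 CPM in Fgfr3-WT, 0.837 to 4.13 CPM in P28 and 4.23 to 59.8 CPM in P4M. Of the 5 tested, 1 was higher and 2 were lower in either cKO group. The shares of all tested genes were 19.2% and 19.7% in P28 and 22.3% and 23.6% in P4M. The summed level of the list was 54.5 to 624 CPM in Fgfr3-WT, 5.99 to 11.8 CPM in P28 and 8.398 to 63.3 CPM in P4M.

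In the stromal surface panel, Nt5e had the smallest SD of log2 CPM of the 10 genes within Fgfr3-WT (0.407) and within P4M (0.0811), whereas in P28 Mcam had the smaller SD (0.404 against 0.540 for Nt5e). It was at 90.9, 118, 127, 75.5 and 65.7 CPM in Fgfr3-WT, at 38, 63.1, 30.2, 70.4 and 64.1 CPM in P28 and at 87.6, 81, 86 and 77.5 CPM in P4M. P28 clones 1 and 3 were the lowest of all 14. Every P4M clone was above every P28 clone, whereas P28 and Fgfr3-WT overlapped. Nt5e fell by 0.84 on the log2 scale in P28 against Fgfr3-WT (SE 0.241, 1.79-fold lower, adjusted p = 0.0140, edgeR) and was not called in P4M (log2 fold change -0.20, SE 0.255, adjusted p = 0.546) or between P4M and P28 (0.64, SE 0.253, adjusted p = 0.129). The P28 call held whichever of the 14 clones was left out and was lost with limma on log2(TPM + 1) (log2 fold change -0.56, adjusted p = 0.0804). In all cKO clones Nt5e had an adjusted p of 0.0524 and was called without 1 of 4 clones, that is without Fgfr3-WT clone 4 or 5 or P28 clone 4 or 5, at 0.0262 to 0.0494.

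Thy1 was detected in some clones and all but absent in others. It was at 0.0326, 4.67, 2.75, 0.512 and 0.0396 CPM in Fgfr3-WT clones 1 to 5 and at 6.28, 0.0239, 34, 0.483 and 0 CPM in P28 clones 1 to 5. In the 4 P4M clones together it had 1 count, in clone 3 (0.0198 CPM). Fgfr3-WT clones 2 and 3 and P28 clones 1 and 3 therefore carried most of the Thy1 counts. All 4 P4M clones, Fgfr3-WT clones 1 and 5 and P28 clones 2 and 5 were within the limit of 3 counts, so no order can be read among these clones. As summed counts per scaled depth, Thy1 was 283-fold higher in Fgfr3-WT than in P4M (95% exact interval 50.2 to 11220) and 1705-fold higher in P28 than in P4M (306 to 67387), and these intervals hold counting error only and not the spread between clones. The fitted log2 fold changes, which depend on the prior count, were -7.59 (SE 2.69, adjusted p = 0.0338, edgeR) for P4M against Fgfr3-WT and -9.94 (SE 2.81, adjusted p = 0.0486, edgeR) for P4M against P28. With 1 clone left out, the first call did not hold in 6 of 14 fits (Fgfr3-WT clones 2 and 3 and each P4M clone, adjusted p up to 0.0863). The second did not hold in 10 (Fgfr3-WT clones 2 to 4, P28 clones 1, 3 and 4 and each P4M clone, up to 0.125). Both were lost without a filter (0.0654 and 0.0889) and with limma on log2(TPM + 1) (0.427 and 0.235). A minimum of 10 counts in each clone removed Thy1. In both comparisons the low-count filter also removed Thy1 when only the groups compared were fitted. Its test therefore depended on having the clones of the third group in the model. P28 against Fgfr3-WT was not called (log2 fold change 2.35, SE 1.63).

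Eng was high in 1 or 2 clones of each group. The levels were 60.6, 6.77, 2.71, 128 and 6.25 CPM in Fgfr3-WT, 1.68, 2.7, 50.6, 2.05 and 2.02 CPM in P28 and 3.83, 72.4, 2.01 and 7.52 CPM in P4M. Fgfr3-WT clones 1 and 4, P28 clone 3 and P4M clone 2 stood above all other clones, and the groups overlapped. Neither the log2 fold change of -1.79 (SE 1.37) in P28 nor that of -0.93 (SE 1.43) in P4M was called. Without P28 clone 3, Eng was called lower in P28 (log2 fold change -4.27, adjusted p = 0.0301, edgeR) and in all cKO clones (-2.59, adjusted p = 0.0453). The log2 fold change in P4M turned to 0.16 without Fgfr3-WT clone 4, and that of P4M against P28 turned from 0.86 to -1.40 without P4M clone 2.

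Among the genes used to isolate mouse skeletal progenitors, Cd200 varied widely among clones of each group. It was at 0, 0.957, 0, 16.1 and 0.554 CPM in Fgfr3-WT, at 0.538, 0.0478, 4.99, 0.363 and 0.179 CPM in P28 and at 8.1, 13.1, 0.277 and 19.96 CPM in P4M. P4M clones 1, 2 and 4 and Fgfr3-WT clone 4 were the 4 highest of the 14. None of its log2 fold changes was called, at -1.52 (SE 1.59) in P28 and 1.55 (SE 1.64) in P4M against Fgfr3-WT and 3.07 (SE 1.71, adjusted p = 0.277, edgeR) in P4M against P28. Without Fgfr3-WT clone 4, Cd200 was called higher in P4M (log2 fold change 4.77, adjusted p = 0.0388, edgeR), and the sign in P28 turned (1.70). In all cKO clones the log2 fold change was 0.01 (SE 1.45) and its sign turned without any of 7 single clones.

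Ly6a was abundant in all groups. It was at 4.76, 68.6, 114, 167 and 166 CPM in Fgfr3-WT, at 30.5, 26.1, 28.8, 143 and 74.9 CPM in P28 and at 36.1, 41.5, 103 and 43.9 CPM in P4M. Fgfr3-WT clone 1 was the lowest of all 14 clones, while P28 clones 4 and 5 and P4M clone 3 were within the range of the other Fgfr3-WT clones. Its log2 fold change was -0.78 (SE 0.716) in P28, -0.89 (SE 0.769) in P4M and -0.11 (SE 0.756) between P4M and P28, none called in any of the fits. Leukocytes also express Ly6a, Thy1 and Cd200, and of 12 haematopoietic markers Ptprc was at most 0.154 CPM in any clone and Cd52 was at 0. Lyz2, of the same list, was at 12.7 to 90.6 CPM in Fgfr3-WT, 1.6 to 19.5 CPM in P28 and 1.34 to 7.42 CPM in P4M. Cd68 was at 3.55 to 54.3, 0.99 to 2.1 and 1.2 to 5.61 CPM in the 3 groups. Of the 3 tested, 1 was higher and 2 were lower in P28 (19.2% and 19.7% of all tested genes). In P4M 0 were higher and 2 were lower (22.3% and 23.6%). The summed level of the list was 16.5 to 145 CPM in Fgfr3-WT, 3.47 to 22.3 CPM in P28 and 5.05 to 9.103 CPM in P4M. The log2 fold change of Ly6a in P4M against P28 turned to 0.51 without P28 clone 4, 0.07 without P4M clone 1 and 0.01 without P4M clone 2. Its relative Ly6c1, which shares part of its sequence, was likewise lowest in Fgfr3-WT clone 1 at 1.11 CPM, against 113 to 268 CPM in the other Fgfr3-WT clones. Ly6c1 was at 7.97 to 15.7 CPM in P28 clones 1 to 3 and at 84.9 and 63.4 CPM in P28 clones 4 and 5. It passed the threshold in all cKO clones against Fgfr3-WT (log2 fold change -1.93, SE 0.759, adjusted p = 0.0497, edgeR).

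Gas1 was at 96, 248, 237, 105 and 50.1 CPM in Fgfr3-WT, at 725, 122, 639, 73.3 and 33 CPM in P28 and at 65.6, 71.1, 38.4 and 53.7 CPM in P4M. P28 clones 1 and 3 stood above all other clones, and P28 clone 5 was the lowest of the 14. Each P4M clone was below the median of either other group. Gas1 had a log2 fold change of 1.11 (SE 0.729) in P28 and -1.36 (SE 0.790) in P4M against Fgfr3-WT, and -2.48 (SE 0.828, adjusted p = 0.0822, edgeR) in P4M against P28. It was called in the last comparison with DESeq2 (adjusted p = 0.0111) and without P28 clone 5 (-2.74, adjusted p = 0.0398, edgeR), and P4M against Fgfr3-WT was called when only those groups were fitted (adjusted p = 0.0416). In all cKO clones the log2 fold change of -0.12 turned to 0.14 without Fgfr3-WT clone 2 and to 0.11 without clone 3.

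Prrx1 varied most among the P28 clones. It was at 141, 235, 201, 45.1 and 77.7 CPM in Fgfr3-WT, at 789.9, 562, 674, 61.5 and 4.53 CPM in P28 and at 236, 221, 256 and 144 CPM in P4M. P28 clones 1 to 3 were the highest of all clones and P28 clone 5 was the lowest. Against Fgfr3-WT it was not called, with log2 fold changes of 1.58 (SE 0.883, adjusted p = 0.174, edgeR) in P28 and 0.61 (SE 0.911) in P4M, but without P28 clone 5 it was called in P28 (1.86, adjusted p = 0.0329). Its paralog Prrx2 was at 16.0 to 52.99 CPM in Fgfr3-WT, 71.3 to 168 CPM in P28 and 96.5 to 118 CPM in P4M, with every cKO clone above every Fgfr3-WT clone, and it rose 3.55-fold in all cKO clones (log2 1.83, SE 0.297, adjusted p = 0.000291, edgeR).

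Ctsk was lower in the cKO clones. It was at 129, 314, 352, 358 and 132 CPM in Fgfr3-WT, at 104, 69.4, 51.2, 46.4 and 35.1 CPM in P28 and at 34.3, 20.5, 205 and 37 CPM in P4M. All P28 clones were below all Fgfr3-WT clones, and in P4M clones 1, 2 and 4 were below them while clone 3 was within their range. Ctsk fell 4.21-fold in P28 (log2 fold change -2.07, SE 0.595, adjusted p = 0.0147, edgeR), 3.47-fold in P4M (log2 fold change -1.79, SE 0.639, adjusted p = 0.0345, edgeR) and 3.82-fold in all cKO clones (log2 fold change -1.93, SE 0.493, adjusted p = 0.00578, edgeR). The first and the last held in every alternative run. The P4M call was lost without Fgfr3-WT clone 2, 3 or 4 or P4M clone 1, 2 or 4 (adjusted p up to 0.0955), without a filter (0.0737) and with only those groups fitted (0.0715). Without P4M clone 3, the log2 fold change in P4M was -3.06 (adjusted p = 0.000661, edgeR). P4M against P28 was not called (0.28, SE 0.606), and this value turned to -0.995 without P4M clone 3.

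The other cathepsins, which are lysosomal proteases, and the cystatins, which inhibit cysteine cathepsins, did not all move with Ctsk. Of the 9 tested, 6 were lower and 1 was higher in P28, against 19.7% of all tested genes lower, and 4 were lower and 1 was higher in P4M, against 23.6%. The median log2 fold changes were -1.05 and -0.54, against -0.02 and -0.06 over all tested genes. Ctsb and Ctsz were lower in P28 and not called in P4M, and Ctsa was not called in either. The cystatin C gene Cst3, whose product inhibits cysteine cathepsins, was at 1599 to 8500.2 CPM in Fgfr3-WT, 206 to 653 CPM in P28 and 183 to 246 CPM in P4M, and it fell 15.9-fold in all cKO clones (log2 fold change -3.99, SE 0.417, adjusted p = 1.52e-05, edgeR). Ctsh, an aminopeptidase, fell 7.93-fold (log2 fold change -2.99, SE 0.445, adjusted p = 0.00017, edgeR), from 102 to 343 CPM in Fgfr3-WT to 7.12 to 55.3 CPM in the cKO clones. Ctsl, an endopeptidase of lysosomes, fell 2.96-fold (log2 fold change -1.57, SE 0.243, adjusted p = 0.000212, edgeR). Ctsc, which activates granule proteases and was named after its values were seen, went the other way, at 0.0285 to 0.268 CPM in Fgfr3-WT, 0.0795 to 1.70 CPM in P28 and 7.26 to 8.05 CPM in P4M. Osteoclasts express Ctsk strongly, and of 10 osteoclast markers Dcstamp was at 0 in all 14 clones and Calcr was at most 0.0478 CPM. The summed level of the list was 43.9 to 72.6 CPM in Fgfr3-WT, 47.7 to 70.4 CPM in P28 and 47.6 to 64.5 CPM in P4M. Most of it was Nfatc1, at 36.1 to 65.8, 38.5 to 61.8 and 41 to 53.8 CPM in the 3 groups. Of the 7 tested, 3 were higher and 1 was lower in P28 (19.2% and 19.7% of all tested genes). In P4M 3 were higher and 0 lower (22.3% and 23.6%). Atp6v0d2 was at 0.977 to 5.9 CPM in Fgfr3-WT, at most 0.311 CPM in P28 and 0.132 to 3.14 CPM in P4M. Tnfrsf11a (the RANK receptor) and Mmp9 (a gelatinase) were higher in both and, like the next gene, were named after their values were seen. Acp5 (tartrate-resistant acid phosphatase) was at most 0.0792 CPM in Fgfr3-WT and was higher in P28 (0.0256 to 11.3 CPM, adjusted p = 0.00220, edgeR). Tnfrsf11a was at 0 to 0.114, 0.452 to 2.41 and 0.185 to 0.336 CPM in Fgfr3-WT, P28 and P4M, and Mmp9 was at 0 to 0.0977, 0.154 to 7.18 and 0.158 to 1.798 CPM. The part of osteoclast markers in the Ctsk result was not tested.

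**Figure D4:**
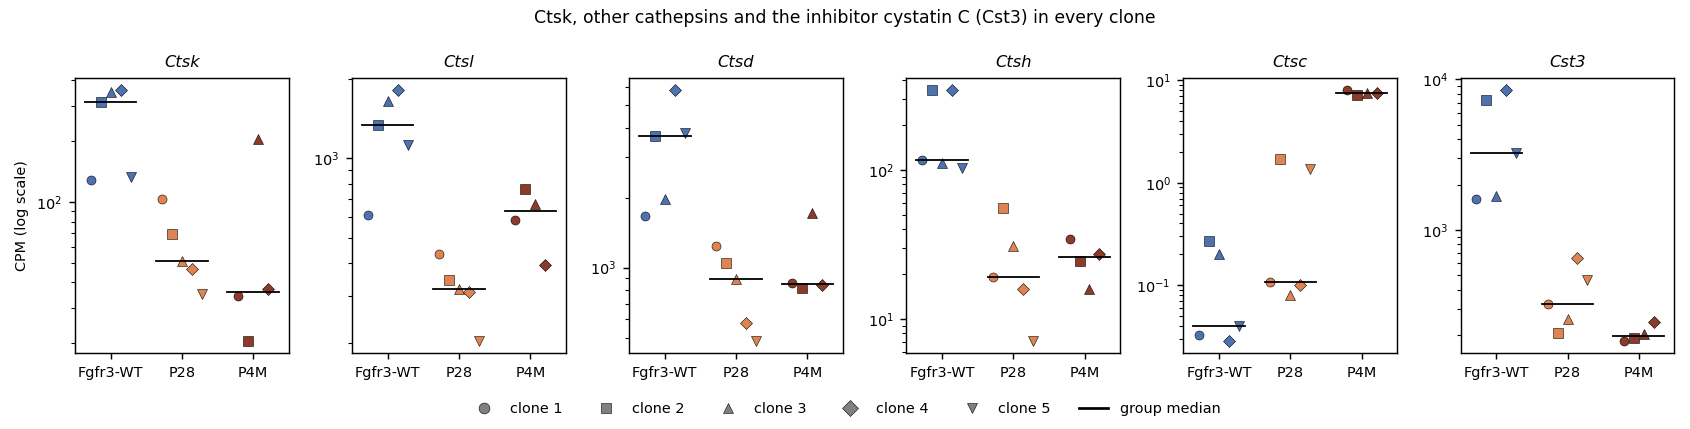
CPM (log axes) of Ctsk, 4 other cathepsins and the cathepsin inhibitor cystatin C (Cst3) in every clone, by group, with a line at the group median. Cst3 and Ctsh lie below the Fgfr3-WT range in all 9 cKO clones, Ctsk does so in 8 of them, and Ctsc is higher in the P4M clones.

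The mouse skeletal stem cell has been isolated as a cell that is positive for CD51 (Itgav) and CD200 and negative for CD90 (Thy1), 6C3 (Enpep) and CD105 (Eng). Transcripts in a clone do not measure surface protein, so the values are given as levels only. Itgav was at 31.4 to 106 TPM in Fgfr3-WT, 59.5 to 103 TPM in P28 and 57.2 to 88.7 TPM in P4M. Cd200 was at 1 TPM or more in 3 clones of each group. Thy1 reached 1 TPM in 2 Fgfr3-WT, 2 P28 and 0 P4M clones, and Enpep in 0, 3 and 0. Eng reached 1 TPM in 5 of 5 Fgfr3-WT, 4 of 5 P28 and 3 of 4 P4M clones. In 0 of the 14 clones were Itgav and Cd200 at 1 TPM or more with Thy1, Enpep and Eng all under 1 TPM. P28 clone 3 held 8.45 TPM of Cd200 together with 38.5 TPM of Thy1, 27.2 TPM of Eng and 4.29 TPM of Enpep. P4M clones 1 and 4 held 8.71 and 18.4 TPM of Cd200 with 0 counts of Thy1, 0 and 0.02 TPM of Enpep, and 1.8 and 3.51 TPM of Eng.

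Clones of 1 group differed more in these genes than in most others. The SD of log2 CPM among clones was above the median of all tested genes for 9 of the 10 genes in Fgfr3-WT, 10 in P28 and 7 in P4M. Its median over the 10 genes was 1.61, 2.01 and 0.54 in the 3 groups, against 0.51, 0.33 and 0.31 over all tested genes. Thy1 in P28 had the largest SD at 4.07, which exceeded that of 99.9% of tested genes, followed by Cd200 in Fgfr3-WT at 3.47 and Prrx1 in P28 at 3.20. Nt5e in P4M had the smallest at 0.08. In P28, clone 3 was the highest for 5 genes (Cd200, Eng, Thy1, Mcam and Ngfr), and clone 5 was the lowest for 6 (Gas1, Thy1, Mcam, Ngfr, Prrx1 and Ctsk). In P4M, clone 3 was the highest for 5 (Ly6a, Thy1, Ngfr, Prrx1 and Ctsk) and the lowest for 3 (Gas1, Cd200 and Eng). The places of Thy1 in P28 clone 5 and P4M clone 3 rest on a difference of 1 count. In Fgfr3-WT, clone 4 was the highest for 4 (Ly6a, Cd200, Eng and Ctsk). In bulk libraries, fewer cells that express a gene and less RNA per cell cannot be told apart.

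**Figure D5:**
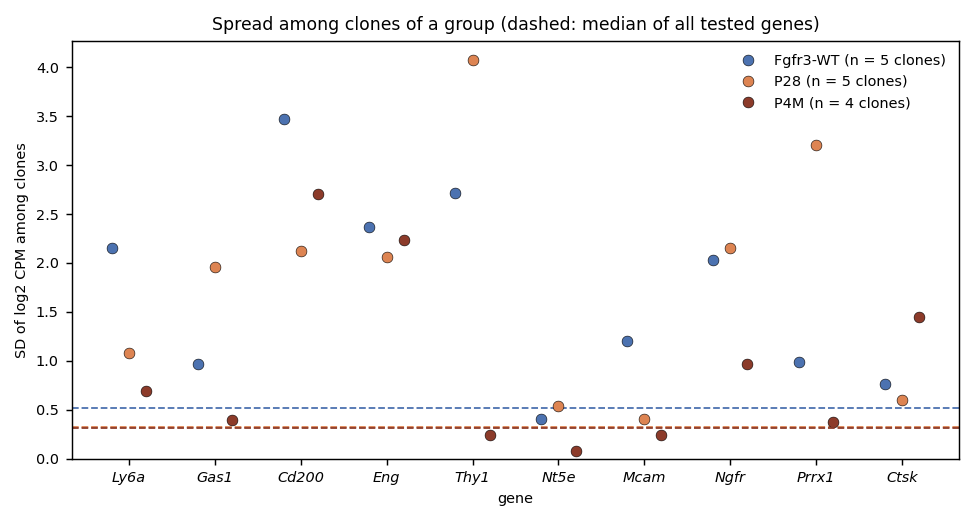
SD of log2 CPM among the clones of each group (y axis) for each of the 10 genes (x axis), with a dashed line for each group at the median SD of all tested genes. Thy1 and Prrx1 in P28 and Cd200 in Fgfr3-WT lie highest, and Nt5e in P4M lies lowest at 0.08.

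Of 22 other skeletal stem and stromal markers, all tested, 10 were higher and 1 was lower in P28 against Fgfr3-WT (19.2% and 19.7% of all tested genes). In P4M 11 were higher and 1 was lower (22.3% and 23.6%). The median log2 fold changes were 1.02 in P28 and 0.96 in P4M. Between P4M and P28, 0 of the 22 were called (3.34% of all tested genes higher and 3.88% lower). Axin2, a target of Wnt signalling, was at 0.650 to 3.11 CPM in Fgfr3-WT and at 6.84 to 63.9 CPM in the cKO clones (log2 fold change 4.04, SE 0.589, adjusted p = 0.000147, edgeR, all cKO clones). Pdpn (podoplanin) was at most 0.854 CPM in Fgfr3-WT, 0.645 to 81.8 CPM in P28 and 82.7 to 138 CPM in P4M (8.53, SE 1.27, adjusted p = 0.000168, edgeR, all cKO clones).

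The partners of Gas1 in Hedgehog and GDNF signalling had 4 of 13 tested genes higher and 0 lower in P28. In P4M 6 were higher and 1 lower. The shares of all tested genes were 19.2% and 19.7% in P28 and 22.3% and 23.6% in P4M. Hhip, a Hedgehog target that binds the ligands, was at most 0.171 CPM in Fgfr3-WT, 1.72 to 25.0 CPM in P28 and 6.96 to 45.0 CPM in P4M (log2 fold change 8.73, SE 1.14, adjusted p = 6.51e-05, edgeR, all cKO clones). Gfra2, a receptor of the GDNF family, was at 0.121 to 0.427 CPM in Fgfr3-WT and 4.59 to 67.6 CPM in the cKO clones (6.41, SE 0.970, adjusted p = 0.000188, edgeR). Smo, the signal transducer of the Hedgehog pathway, was at 119 to 246 CPM in Fgfr3-WT and 67.5 to 105 CPM in P4M (-1.25, SE 0.206, adjusted p = 0.000417, edgeR).

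Of 16 tested partners of Eng, 8 were higher and 0 lower in P28 (19.2% and 19.7% of all tested genes). In P4M 8 were higher and 1 was lower (22.3% and 23.6%). Smad1, Smad2 and Smad5, the receptor-activated transducers of BMP and TGF-beta, rose by 1.06 on the log2 scale (SE 0.132), 0.72 (SE 0.126) and 0.92 (SE 0.165) in all cKO clones, with adjusted p of 4.7e-05, 0.000506 and 0.000583 (edgeR). The ligand gene Gdf2 (BMP9) was at 0 in all clones. The partners of Nt5e in adenosine metabolism had 4 of 10 tested genes higher and 3 lower in P28, against 19.2% and 19.7% of all tested genes. In P4M 2 were higher and 2 lower (22.3% and 23.6%). Enpp1, an ectoenzyme that splits ATP, was at 99.3 to 579 CPM in Fgfr3-WT and 9.86 to 83.3 CPM in the cKO clones (log2 fold change -3.18, SE 0.494, adjusted p = 0.000217, edgeR). Ada, which deaminates adenosine, rose in P28 (1.73, SE 0.380, adjusted p = 0.00318, edgeR), and the adenosine receptor gene Adora1 was lower in all cKO clones (-4.19, SE 1.01, adjusted p = 0.00406, edgeR).

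In the Ly6 family of Ly6a, 5 of 13 genes were tested. In P28 2 were higher and 2 were lower (19.2% and 19.7% of all tested genes), and in P4M 1 was higher and 2 were lower (22.3% and 23.6%). Ly6e was at 5.83 to 21.8 CPM in Fgfr3-WT and 33.0 to 116 CPM in the cKO clones (log2 fold change 2.497, SE 0.353, adjusted p = 0.000121, edgeR). Lynx1 (-0.91, SE 0.245, adjusted p = 0.00796, edgeR) and Ly6c2 (-2.61, SE 0.728, adjusted p = 0.00951, edgeR) were lower in all cKO clones, and Ly6c2 was at most 2.05 CPM in any clone. Of 9 tested partners of Ngfr, 1 was higher and 1 lower in P28 and 1 was higher and 3 were lower in P4M, beside the same shares of all tested genes. The neurotrophin receptor gene Ntrk3 was at 0.0326 to 122 CPM in Fgfr3-WT and at most 1.36 CPM in the cKO clones (-7.22, SE 1.29, adjusted p = 0.000556, edgeR), and the ligand gene Ntf5 was higher at low levels, at most 0.0977 CPM in Fgfr3-WT and at most 0.598 CPM in the cKO clones (2.51, SE 0.555, adjusted p = 0.00235, edgeR). Bex3, which encodes a protein that binds the Ngfr receptor, was lower in P4M (-1.24, SE 0.394, adjusted p = 0.0208, edgeR). Of the 7 partners of Cd200, Thy1 and Mcam, 4 were tested, with 0 higher and 1 lower in P28 and 1 higher and 1 lower in P4M. The shares of all tested genes given above for the Ly6 family apply here too. Itgb2, a leukocyte integrin subunit, was lower in all cKO clones (-1.87, SE 0.369, adjusted p = 0.00109, edgeR) and Itgb3 was higher (1.78, SE 0.599, adjusted p = 0.0249, edgeR).

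For each gene, the profile over the 14 clones was compared with those of 11079 named genes by the root mean square difference of log2 CPM, each profile centred on its own mean. The closest to Mcam was Ddah2, an enzyme of dimethylarginine breakdown, at 0.63, where the Mcam profile itself departed from its mean by 2.57. Ddah2 was at 0.445 to 2.69 CPM in Fgfr3-WT, 25.1 to 67.1 CPM in P28 and 27.5 to 44.7 CPM in P4M. The closest to Cd200 was Dmp1, an osteocyte matrix protein gene, at 1.85 against 2.95. Dmp1 was at 88.1, 137, 1.72 and 175 CPM in P4M clones 1 to 4 and at most 3.76 CPM in the other groups, so that P4M clone 3 was the lowest of its group for both genes. The closest to Thy1 was Medag at 1.64 (against 3.11), to Ctsk the extracellular superoxide dismutase gene Sod3 at 0.57 (against 1.33) and to Prrx1 Fbxl7 at 0.99 (against 1.83). The others were Glrx for Ly6a (0.69 against 1.34), Fam43a for Gas1 (0.76 against 1.35), Kazald1 for Eng (1.48 against 2.14), Arpc5l for Nt5e (0.28 against 0.53) and Rgl1 for Ngfr (1.05 against 1.77).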

How the data were processed

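Libraries of the 14 clones were prepared by the authors with SMART-Seq v4 and sequenced as single-end reads. By the submitters' processing notes and the paper's methods, reads were checked with FastQC and aligned to mm10 with TopHat and Bowtie2, and non-ambiguous counts were made with HTSeq (versions not given in the sources used here). The deposited raw counts are whole numbers without normalization. The TPM and FPKM values, as deposited by the authors, are scaled by length and depth with a program not given in the sources used here, and their order of genes was compared. The deposited expected counts, depth-normalized counts and rlog values were not used.

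Counts were tested with edgeR 4.0.16 in R 4.3.3, using filterByExpr, TMM scaling and a robust quasi-likelihood fit of the 3 groups, with Benjamini-Hochberg adjustment at an FDR of 0.05. The SE is the absolute log2 fold change divided by the root of F. Log2 CPM used a prior count of 2. The steps were tested on simulated data. Total counts per clone of 25688946 or more set the limit at low levels. A batch term could not be fitted, because each submission holds 1 genotype. The 10 genes and all gene lists were chosen with earlier results of these data known. All 10 genes are named with every clone. Of each list, up to 3 called genes with the lowest adjusted p are named, and for each of the 10 the gene with the closest profile among named genes whose log2 CPM averages 1 or more. Prrx2, Ly6c1, Ctsc, Acta2, Rgs5, Vwf, Itgav and Enpep are named outside this rule, and so are marker genes at or near 0. Lyz2, Cd68, S100b, Nfatc1, Atp6v0d2, Fn1, Vim and Col3a1 were also named outside it, after their values were seen. Alternatives were DESeq2 1.42.0, limma 3.58.1 with trend on log2(TPM + 1), RLE scaling, no scaling, no filter, a minimum of 10 counts in each clone, only the groups compared, a minimum log2 change of 1 in size, and leaving out each clone. GENCODE M21 and RefSeq (GRCm38.p6) gave coordinates and sequences.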

Additional observations from a re-analysis of the deposited data

Results flagged for a closer look

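Among the 30 combinations of gene and group, the highest or lowest clone stood apart from the rest by Dixon's ratio on log2 CPM in 5. Chance alone flags about 1 in 20 where values are normally spread. That rate does not hold for low counts such as those of Ngfr and Thy1, so the number of flags is not set against it. Ly6a was lowest in Fgfr3-WT clone 1 at 4.76 CPM. Eng was highest in P28 clone 3 at 50.6 CPM. Ngfr was highest in Fgfr3-WT clone 5 at 1.23 CPM and in P4M clone 3 at 0.731 CPM. Thy1 in P4M clone 3 (0.0198 CPM) stood apart by 1 count against 0 in the other 3 clones.

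For 2 genes the effect against Fgfr3-WT differed between the P4M and P28 clones (edgeR). The test of this difference is the P4M against P28 comparison itself, so these are the results already given above. The log2 fold change in P4M minus that in P28 was -1.62 for Mcam (adjusted p = 0.0489, P4M lower than P28 in 4 of 4 clones) and -9.94 for Thy1 (adjusted p = 0.0486, 1 count over the 4 P4M clones). Each of these calls was lost when single clones were left out, as given above.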

How the results depend on the processing

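The alternatives gave 838 results for log2 fold changes of the 10 genes in 4 comparisons. Of these, 763 kept their direction and their side of the threshold, 40 lost a call, 13 gained one and 22 changed sign. The 838 include 40 for the minimum log2 change of 1 in size, which was applied to the main fit without a new fit. Those 40 could lose a call but could not gain one or change sign. The number of genes called higher went from 1 to 0 with a minimum of 10 counts in each clone in P28, P4M and all cKO clones against Fgfr3-WT, since that filter removed Mcam. The number called lower in P28 went from 2 to 1 with limma on log2(TPM + 1) and with a minimum log2 change of 1 in size. The number lower in P4M against Fgfr3-WT went from 2 to 0 without a filter. With a minimum of 10 counts in each clone and with limma it went to 1, Ctsk. With only the groups compared it was also 1, but this was Gas1 (adjusted p = 0.0416, edgeR), and neither Ctsk nor Thy1 was called. In P4M against P28 the number lower went from 2 to 0 without a filter and with a minimum of 10 counts in each clone. It went to 1 with only the groups compared and with limma, and to 3 with DESeq2, which also called Gas1 (adjusted p = 0.0111). Leaving out 1 clone gave 1 to 2 genes higher in each comparison with Fgfr3-WT and 0 in P4M against P28. It gave 2 to 3 lower in P28, 0 to 2 in P4M, 1 to 2 in all cKO clones and 0 to 3 in P4M against P28. The cause of these changes was not tested.

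With limma on log2(TPM + 1), the log2 fold change of Prrx1 in P4M against P28 changed sign to 0.13 and that of Ctsk to -0.42. Leaving out 1 clone gave ranges across 0 for Cd200 (-3.62 to 1.70 in P28, -1.03 to 3.24 in all cKO clones), Eng (-3.19 to 0.16 in P4M, -1.40 to 3.36 in P4M against P28), Ngfr (-0.67 to 3.89 in P4M), Gas1 (-0.42 to 0.14 in all cKO clones), Ly6a (-0.58 to 0.51 in P4M against P28) and Ctsk (-0.995 to 0.59 in P4M against P28). The TPM and FPKM values placed the 10 genes in the same order. No paired analysis was possible because replicate numbers follow accession order and pair no clones. Depth limits Ngfr, Thy1 and Mcam at low levels, and intervals and limits cover counting error only.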
